A study of Danio rerio with 24 samples.

Results

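In wildtype zebrafish larvae, 150 of the 25362 genes with regularized log2 values (rlog, a log2 scale on which genes with few counts are shrunk towards their mean) rose steadily across dawn. They were chosen by measured values alone. In the wildtype samples, the mean rlog value had to increase by at least 0.2 from ZT-3 to ZT0 and again by at least 0.2 from ZT0 to ZT+2.5, and 166 genes met this. After 8 clock and light-response genes were left out by name, 158 remained, and the 150 with the largest smaller step were kept. The wildtype steps are therefore given as a description with no test, as are the differences between genotypes at single time points, which share those wildtype samples.

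Dawn is a time of rapid change in the zebrafish larva, a day-active animal. Its tissues hold circadian clocks that respond to light directly, many photoreceptor genes follow a daily cycle, and cortisol, the glucocorticoid hormone of fish, is released in a daily rhythm. Klf9 is a transcription factor of the Krüppel-like family whose gene is switched on by glucocorticoids and by the clock, and it acts mostly as a repressor.

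RNA was sequenced from klf9-/- larvae of AB strain descent and from wildtype larvae with the same grandparents. The mutant allele was a CRISPR-made frameshift deletion in the first exon. Each genotype was sampled at ZT-3, ZT0 and ZT+2.5, that is 3 hours before, at and 2.5 hours after the onset of light in the incubator. All larvae were whole animals at 5 days post-fertilization, each of the 4 samples per genotype and time point was a pool of 6 larvae from its own dish, and no larva was treated. In such bulk samples, fewer cells of a type and less RNA per cell cannot be told apart.

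Values are counts scaled to a common library size (CPM) and adjusted by TMM factors, from totals of 41444609 to 64452247 expected counts per sample. As a check of the labels, klf9 itself averaged, over the successive time points, 16.4 ± 4, 20.4 ± 2.07 and 11.8 ± 5.90 CPM in klf9-/- and 49.7 ± 12.3, 64.2 ± 9.70 and 30.8 ± 10.7 CPM in wildtype (SD, n = 4 pools each). The samples of the genotypes did not overlap at ZT-3 and ZT0 but did at ZT+2.5. The first principal component (PC1, 21.7% of the variance) was computed here from the rlog values and included in the tests. The study used its own first component, which held a different share of the variance, as a covariate for differences between replicates. The study attributed that component largely, and perhaps wholly, to an artifact of RNA purification. The PC1 scores computed here averaged 0.27, 0.25 and -0.08 SD in klf9-/- and 0.35, -0.46 and -0.33 SD in wildtype at the 3 time points. Only 18 members had a positive loading on PC1, against 51.7% of all genes, and their median loading was -0.27 against 0.022. With rlog values adjusted for PC1, an alternative chosen after seeing the data, 142 genes met the rule and 119 of the 150 members were among them (79.3% of the members and 83.8% of that list). The part of PC1 in the choice of the other members was not tested.

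The members spanned a wide range of levels, with mean rlog values of 4.78 to 14.5 and a median of 9.59, which is at percentile 63.8 of all genes. The smaller wildtype step was 0.27 at the median and 0.96 at most. The last members inside the limit were calr3b, guca1d and cyp2ad2, with smaller steps of 0.210, 0.210 and 0.209. The first genes outside it were aoc2, sik2b and slc47a2.1, with 0.209, 0.208 and 0.207. In wildtype, 76 members had the larger step before light onset and 74 after it. The files gave 36 members no gene name. Of the 136 members matched to RefSeq genes, 19 lay within 3 protein-coding genes of another member, most of them family copies such as chia.2 and chia.3, hsp90aa1.1 and hsp90aa1.2, cyp2ad6 and cyp2ad2, and cyp2k18 and cyp2k19. Reads that such copies share may have been split between them by RSEM, so single copies are less certain.

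**Figure D1:**
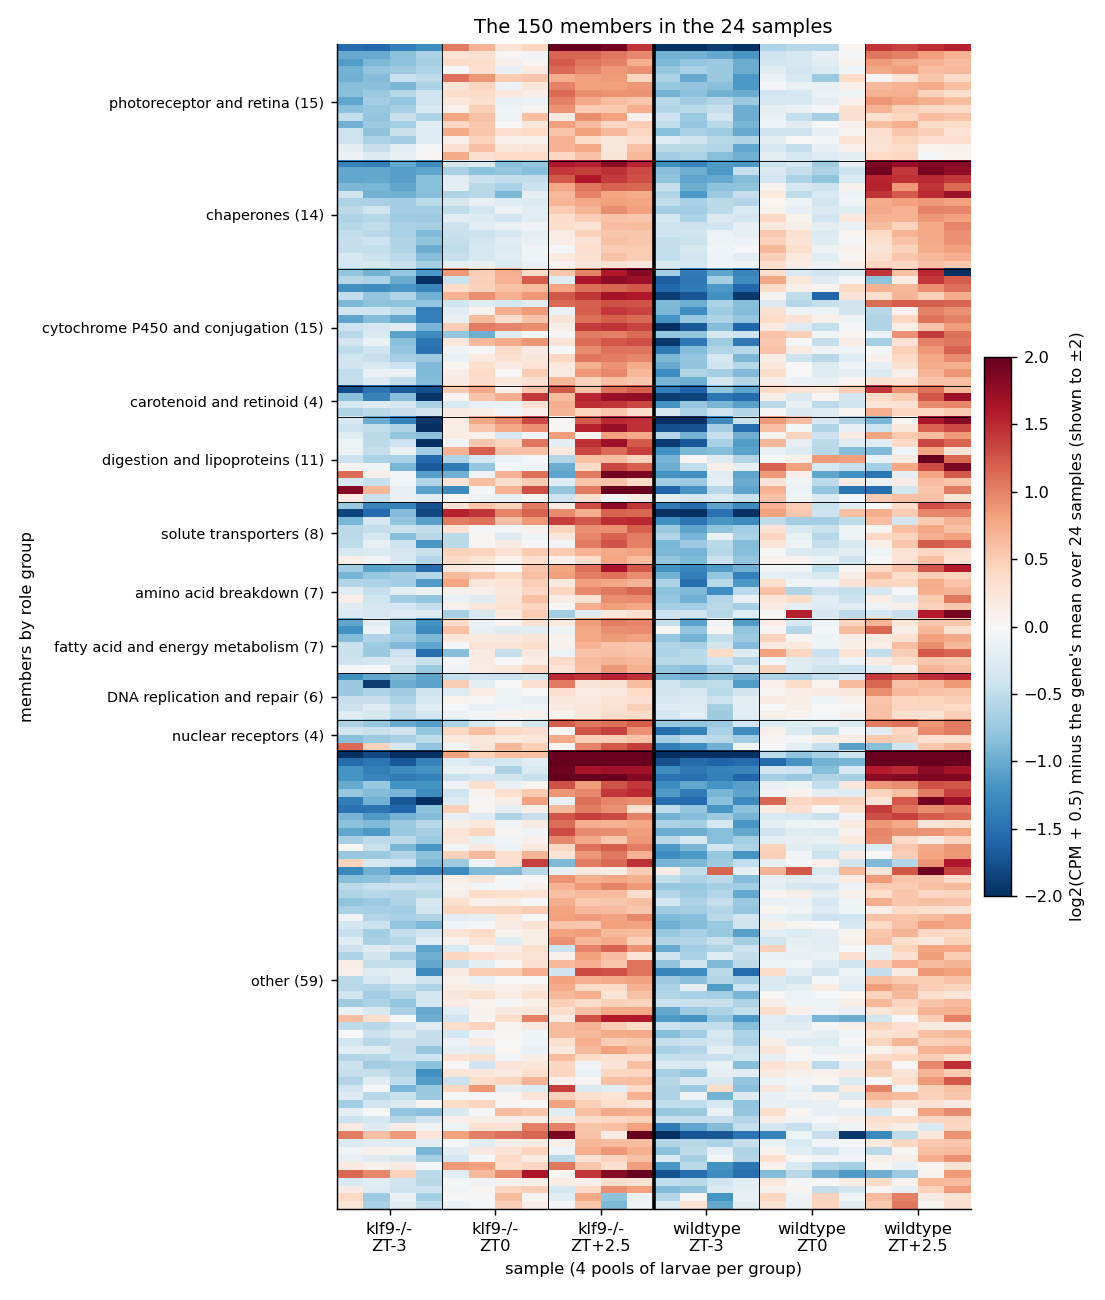
Heat map of log2(CPM + 0.5) minus each gene's mean over the 24 samples for the 150 members (rows, by role group and within it by the klf9-/- change over the whole span). Columns are the 4 pools of each group, klf9-/- left of wildtype, and the colours run towards high values from ZT-3 to ZT+2.5 in both genotypes.

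Most members also rose in klf9-/-. This was tested in the 12 klf9-/- samples, whose values did not enter the wildtype steps. The rlog values were made over all 24 samples, so their shrinkage may carry an indirect part of klf9-/-, which was not tested. The test was edgeR's quasi-likelihood test across 22602 genes, with a call at an adjusted p of at most 0.1. From ZT-3 to ZT0, 123 members rose (82.0%, against 9.64% of all genes tested) and 0 fell (against 6.94%), and the median log2 fold change was 0.71 against -0.004 over all genes. From ZT0 to ZT+2.5, 102 rose (68.0%, against 8.98%) and 0 fell (against 7.05%), with a median of 0.54 against 0.009. Over the whole span, 143 rose (95.3%, against 17.2%) and 0 fell (against 14.1%), with a median of 1.32 against 0.003. Calls at both steps were made for 90 members (60%, against 1.81%). In 127 members (84.7%, against 8.88%) every ZT+2.5 sample lay above every ZT-3 sample.

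Side by side in rlog, the median step was 0.40 before light onset and 0.35 after it in klf9-/-, and 0.33 and 0.34 in wildtype. The step before light onset was larger in klf9-/- in 94 members, and the step after it in 60. Only the wildtype steps had to pass the rule, so these values do not compare the genotypes evenly. Both klf9-/- steps were positive in 143 members and both were at least 0.2 in 89. When the same rule was applied to the klf9-/- samples, 168 genes met it after the names were left out, and the top 150 shared 85 genes with the members, or 56.7% of each list. In rlog values not adjusted for PC1, the step before light onset was the larger in 91 members in klf9-/- and in 76 in wildtype. In the klf9-/- fit, which included PC1, 100 members changed more at the step before light onset and 50 at the step after it. The plot of the klf9-/- steps shows this division by role group.

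**Figure D2:**
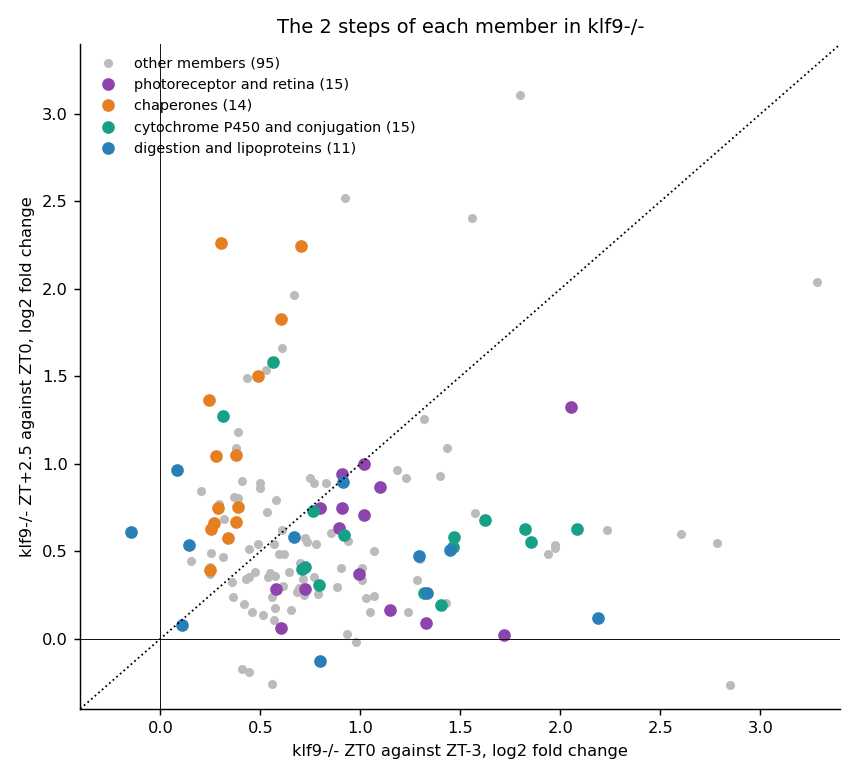
Fitted log2 fold change of each member in klf9-/- at ZT0 against ZT-3 (horizontal) and at ZT+2.5 against ZT0 (vertical), coloured by role group, with the dotted line marking equal steps. All 14 chaperones lie above the line, and 14 of 15 photoreceptor and retina genes and 13 of 15 cytochrome P450 and conjugation genes lie below it.

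For description, 91 members with a known role were sorted into 10 role groups after their values had been seen, so the groups get no test of their own. The 59 others include genes with no annotation and genes that fitted no group. Of 30 gene lists drawn up with earlier results of these data known (799 genes), 11 held a member and 30 members were in a list.

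Photoreceptor and retina genes made up 15 members. All 15 rose in klf9-/- before light onset, 10 rose again after it and all 15 rose over the span, with median log2 fold changes of 0.99, 0.63 and 1.54. The step before light onset was the larger in 14 of the 15 in klf9-/-, whereas in wildtype rlog values it was in 6 and the step after it in 9 (rlog medians of 0.56 and 0.33 in klf9-/-, against 0.36 and 0.40 in wildtype). The klf9-/- count came from the fit with PC1 and the wildtype counts from rlog values not adjusted for it. Ranking by the smaller wildtype step also favours even wildtype steps. These values therefore cannot compare the timing of the genotypes evenly, and the difference was not tested. The leading member was pde6ha (ENSDARG00000102558), the inhibitory subunit of the cone phosphodiesterase that passes the light signal on. It had 40.05, 39.1, 45.4 and 49.4 CPM at ZT-3, then 239, 189.9, 142 and 158 at ZT0 and finally 464, 489.7, 444 and 318 at ZT+2.5 in klf9-/-. In wildtype it had 25.7, 28.5, 31.1 and 29 CPM at ZT-3, then 75.6, 79.8, 79.4 and 122 at ZT0 and finally 317, 305, 328 and 342 at ZT+2.5. The 3 time points did not overlap in either genotype, and every klf9-/- sample lay above every wildtype sample of its time point except at ZT+2.5, where 1 klf9-/- pool fell within the wildtype range. The klf9-/- steps were log2 fold change 2.05 ± 0.11 (SE), adjusted p = 1.5e-07, and log2 fold change 1.32 ± 0.11 (SE), adjusted p = 5.3e-06.

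Cone arrestin, arr3a, which shuts off activated cone opsins, had 224, 224, 256 and 291 CPM at ZT-3, then 546, 561, 467 and 437 at ZT0 and finally 1013, 1010.0, 944 and 879.8 at ZT+2.5 in klf9-/-. Wildtype larvae had 234, 236, 223 and 201 CPM at ZT-3, then 339, 356, 406 and 445 at ZT0 and finally 946, 915, 799 and 732 at ZT+2.5. No time point overlapped the next in either genotype, and the genotypes overlapped at each. The klf9-/- steps were nearly equal (log2 fold changes 1.02 ± 0.058 and 1.0 ± 0.059, SE). The rise of rbp3, the carrier of retinoids between photoreceptors and pigment epithelium, was 1.02 ± 0.082 and 0.71 ± 0.082 (adjusted p = 2.5e-06 and 6e-05), from means of 91.5 ± 7.77, 186 ± 28.1 and 294 ± 16.9 CPM in klf9-/- and 87.6 ± 10.24, 155 ± 12.96 and 257 ± 11.99 CPM in wildtype. The retinol-binding protein gene rbp4l rose by 1.097 ± 0.058 and 0.86 ± 0.058, the recoverin gene rcvrn3 by 0.91 ± 0.052 and 0.75 ± 0.052, and sagb, a rod-type arrestin, by 0.80 ± 0.066 and 0.75 ± 0.066. In contrast, guca1d, an activator of the photoreceptor guanylate cyclase, the potassium channel subunit gene kcnv2b and the class III myosin gene myo3a rose before light onset and did not pass the test after it, with changes after it of 0.091 ± 0.25, 0.02 ± 0.13 and 0.06 ± 0.11.

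With equal groups, the wildtype steps cancel in a comparison over the 3 time points together. PC1 in the fit, whose scores changed along those steps, can bring part of them back. In this comparison 78 members were higher in klf9-/- (52.0%, against 19.5% of the 23158 genes tested) and 17 were lower (11.3%, against 16.5%). Without PC1 the counts were 59 and 15. With PC1, the median was 0.19 against 0.011 over all genes. Of the photoreceptor and retina genes, 11 were higher and 0 lower, among them pde6ha (log2 fold change 0.63 ± 0.10 (SE), adjusted p = 3.4e-05), myo3a (0.54 ± 0.069), rcvrn3 (0.36 ± 0.028) and arr3a (0.20 ± 0.028). The rlog difference of each gene (klf9-/- minus wildtype) had a median of 0.036, 0.27 and 0.13 at ZT-3, ZT0 and ZT+2.5. At ZT0 all 15 genes were above wildtype. The whole list of 37 photoreceptor markers, which holds 5 members, did not move one way. Of its 35 genes tested, 14 rose and 9 fell before light onset in klf9-/-, and its summed level was 10849 to 15161, 11313 to 14499 and 11531 to 14800 CPM in klf9-/- and 9728 to 12738, 10237 to 12243 and 10568 to 12972 CPM in wildtype at the 3 time points. No marker was at 0, 17 were higher and 4 lower in klf9-/- over the time points. Among the pools, klf9-/- ZT-3 replicate 4 was the highest of its 4 in 13 of the 15 members, wildtype ZT-3 replicate 4 the lowest in 14 and wildtype ZT0 replicate 4 the highest in all 15, and the part of photoreceptor RNA content in the members' differences was not tested.

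**Figure D3:**
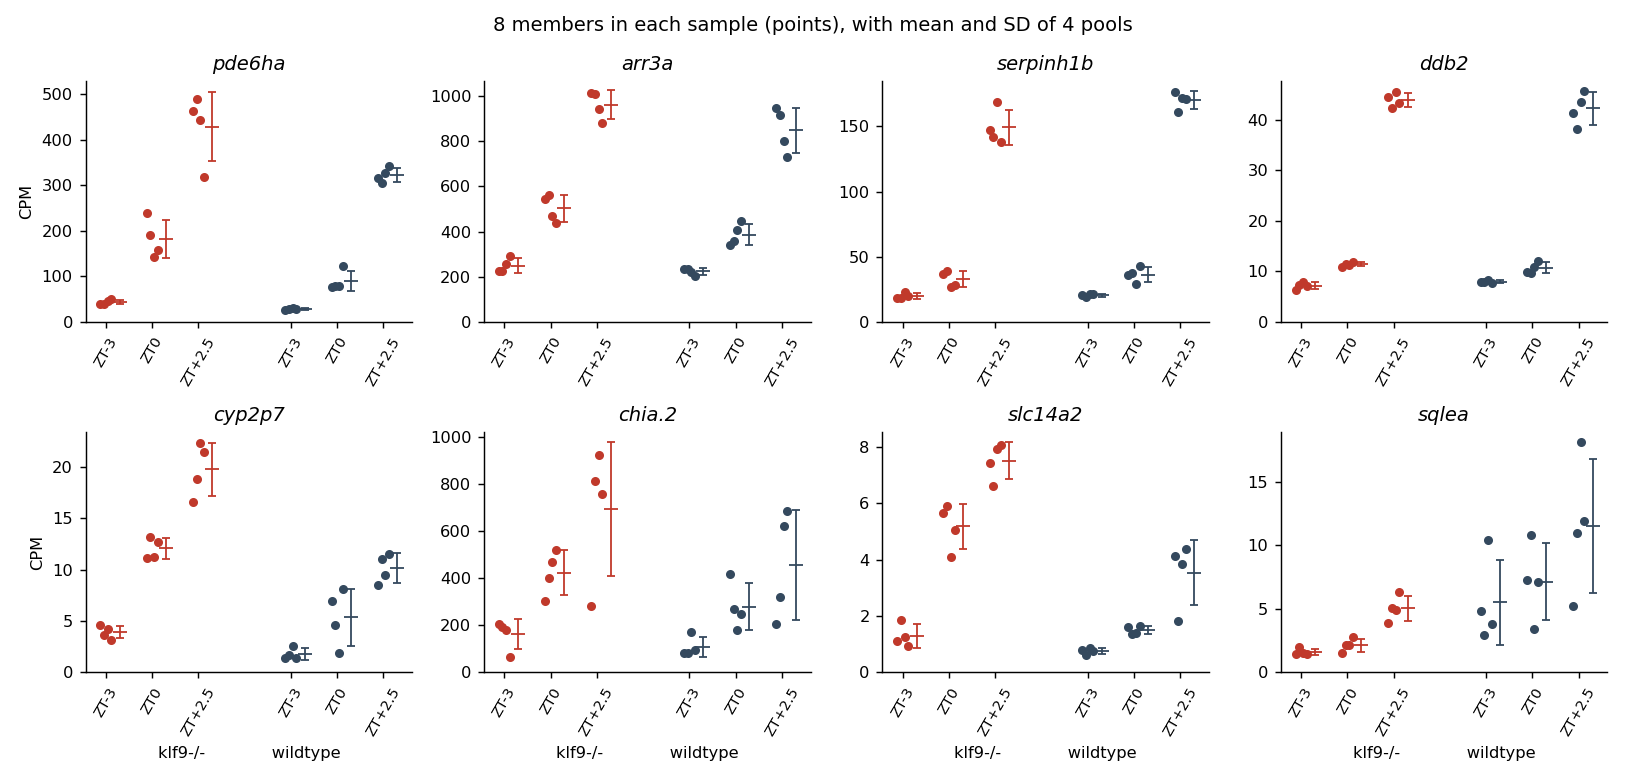
CPM of 8 members in each pool (points), with mean and SD of 4 pools beside them, klf9-/- (red) left of wildtype (dark blue) and time points in order. The steps of pde6ha, arr3a and ddb2 separate all time points, and sqlea lies lower in klf9-/-.

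Chaperones, which fold newly made or damaged proteins, made up another 14 members, and in klf9-/- their larger change came after light onset. All 14 rose in klf9-/- after light onset and 13 before it, but the median change was 0.90 after and 0.32 before, and all 14 changed more after it. In wildtype rlog values 13 of the 14 also had the larger step after light onset (medians 0.27 before and 0.53 after). Without PC1 in the fit only 7 rose before light onset and again all 14 after it. The collagen chaperone serpinh1b (Hsp47, ENSDARG00000019949) had 18.6, 18.3, 23.3 and 19.7 CPM at ZT-3, then 36.9, 39.1, 26.6 and 28 at ZT0 and finally 148, 142, 169 and 138 at ZT+2.5 in klf9-/-. The wildtype pools had 20.2, 18.8, 21.5 and 21.4 CPM at ZT-3, then 35.7, 37.3, 29.2 and 42.6 at ZT0 and finally 177, 161, 172 and 171 at ZT+2.5. The ZT+2.5 samples stood far above all others in both genotypes, and the klf9-/- step after light onset was log2 fold change 2.24 ± 0.12 (SE), adjusted p = 1.3e-07.

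The cytosolic Hsp90 genes hsp90aa1.1 and hsp90aa1.2, neighbours whose reads may be split, rose by 1.502 ± 0.11 and 1.83 ± 0.085 after light onset. The inducible Hsp70 gene hsp70l had 9.55 ± 1.96, 11.3 ± 2.47 and 29.2 ± 3.02 CPM in klf9-/- and 9.93 ± 2.02, 14.8 ± 3.24 and 47.1 ± 6.72 CPM in wildtype, and its klf9-/- steps were 0.24 ± 0.16 (adjusted p = 0.39) and 1.36 ± 0.15 (adjusted p = 0.00013). Among the co-chaperones, dnaja1 rose by 1.05 ± 0.053, dnajb1b by 1.05 ± 0.067 and CABZ01080568.1, which the reference table lists as dnaja, by 2.26 ± 0.058 after light onset. The Hsp110-type gene hspa4a rose by 0.76 ± 0.053 and hspd1, the mitochondrial Hsp60, by 0.39 ± 0.062.

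Of the endoplasmic reticulum chaperones, BiP (hspa5) rose by 0.26 ± 0.048 and 0.63 ± 0.049 in klf9-/-, Grp94 (hsp90b1) by 0.29 ± 0.05 and 0.75 ± 0.051, the disulfide isomerase pdia4 by 0.27 ± 0.041 and 0.66 ± 0.041 and the calreticulin gene calr3b by 0.34 ± 0.056 and 0.58 ± 0.056. Without PC1, the smaller changes before light onset of hspa5, hsp90b1, pdia4 and calr3b missed the threshold (adjusted p = 0.33, 0.17, 0.25 and 0.27), as did those of dnajb1b and hspd1 (0.22 and 0.12). The wider lists, which hold 8 and 4 of these members, rose mainly after light onset. Of 34 cytosolic and mitochondrial chaperones, 13 rose before light onset and 30 after it (medians 0.13 and 0.38). Of 28 endoplasmic reticulum chaperones 10 and 21 did (medians 0.12 and 0.34), with 0 falling at either step in both lists.

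In contrast to the photoreceptor genes, no chaperone member was higher in klf9-/- over the time points and 10 of 14 were lower, with a median log2 fold change of -0.25. The largest differences were in hsp70l (log2 fold change -0.36 ± 0.11 (SE), adjusted p = 0.014), calr3b (-0.34 ± 0.049, adjusted p = 1.3e-05) and hsp90b1 (-0.34 ± 0.052, adjusted p = 2.9e-05). For hsp90aa1.1 (-0.23 ± 0.086, adjusted p = 0.044) the call was lost without wildtype ZT+2.5 replicate 1 (-0.19, adjusted p = 0.10). The change of serpinh1b was -0.14 ± 0.065 (adjusted p = 0.11). By rlog means, all 14 were below wildtype at ZT-3 and at ZT+2.5 and 13 at ZT0. On the PC1-adjusted values, 7 of the 14 still met the rule.

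**Figure D4:**
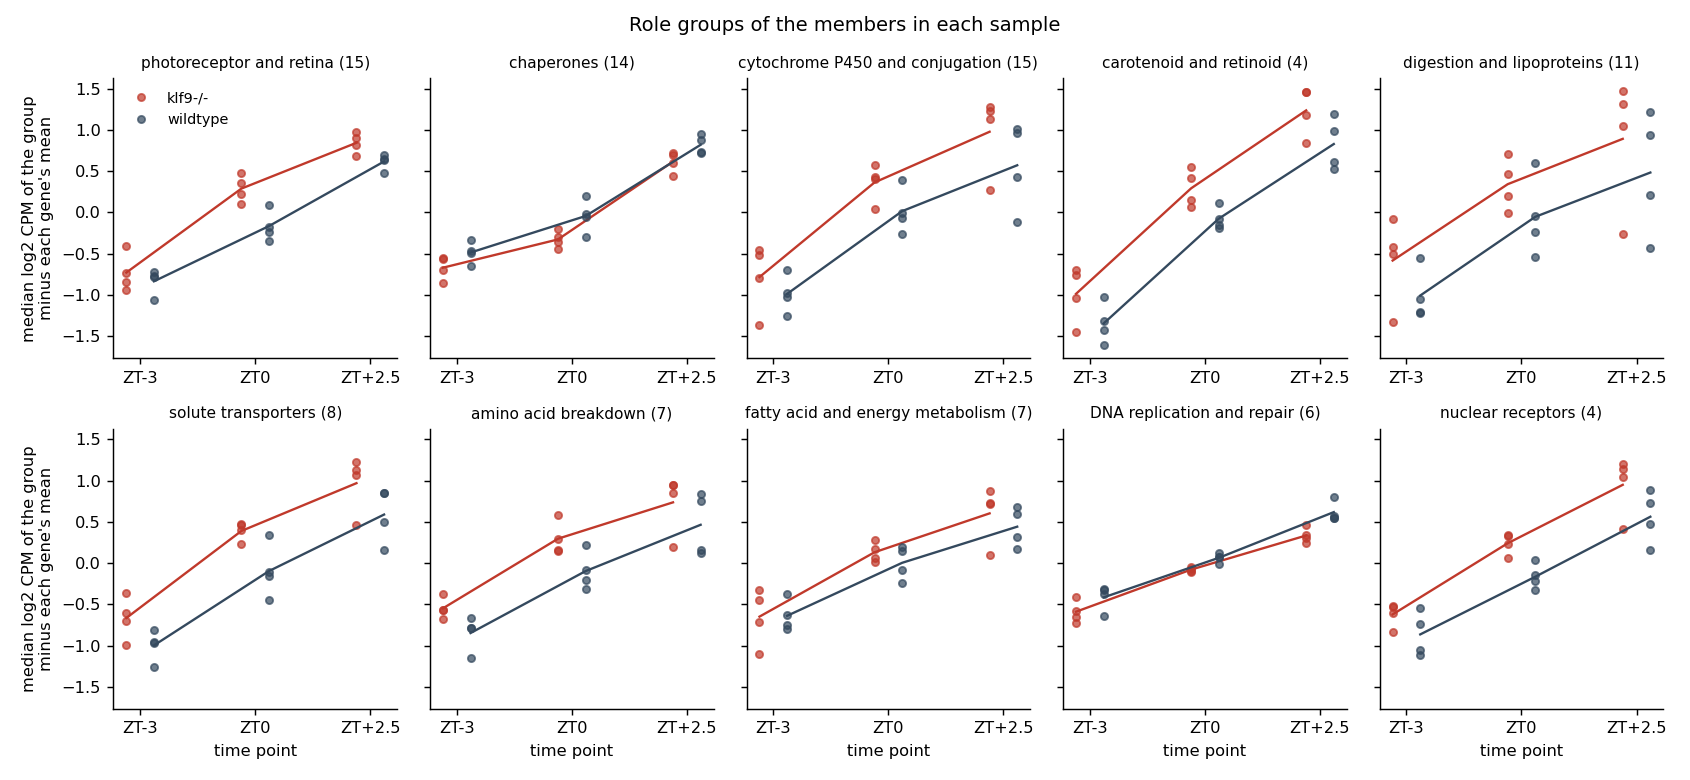
Median log2 CPM of each role group relative to each gene's mean over 24 samples (vertical), per pool (points) with lines through the means of 4 pools, for klf9-/- (red, left) and wildtype (dark blue, right) at each time point. Photoreceptor genes are steeper before light onset and chaperones after it in klf9-/-, and pools differ most in the digestion group.

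Cytochrome P450 and conjugation genes, which modify and clear foreign compounds, steroids and fatty acids, made up another 15 members. In klf9-/- 14 rose before light onset, 11 after it and all 15 over the span, with medians of 1.32, 0.58 and 1.60. The family 2 cytochrome cyp2p7 had 4.64, 3.69, 4.23 and 3.20 CPM at ZT-3, then 11.1, 13.2, 11.2 and 12.7 at ZT0 and finally 16.6, 18.8, 22.3 and 21.4 at ZT+2.5 in klf9-/-. In wildtype it had 1.43, 1.71, 2.60 and 1.39 CPM at ZT-3, then 6.999, 4.59, 1.87 and 8.12 at ZT0 and finally 8.48, 11.1, 9.50 and 11.6 at ZT+2.5. Every klf9-/- sample lay above every wildtype sample of the same time point, the klf9-/- time points did not overlap, and the klf9-/- steps were log2 fold change 1.62 ± 0.093 (SE), adjusted p = 6e-08, and 0.68 ± 0.083. The neighbour genes cyp2ad6 and cyp2ad2 rose by 2.403 ± 0.069 and 1.99 ± 0.18 over the span, and the sulfotransferases sult1st2 and sult1st3 by 2.45 ± 0.31 and 1.60 ± 0.23. An exception in timing was cbr1, a carbonyl reductase, which rose by 0.56 ± 0.064 before and 1.58 ± 0.059 after light onset. Likewise cyp2k18 rose after it (1.27 ± 0.16, against 0.31 ± 0.17 before it with adjusted p = 0.30).

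Of these 15, 10 were higher and 0 lower in klf9-/- over the time points, with a median of 0.36. Liver and intestine markers were also higher in klf9-/-, and they moved with the group before light onset but not after it. Of the markers tested, 21 of 22 for liver and 12 of 19 for intestine were higher in klf9-/- and 0 were lower. The intestine list holds sult1st2. Before light onset 13 liver and 9 intestine markers rose in klf9-/- with 0 falling. After light onset 0 liver markers rose and 1 fell (median -0.076), and 1 intestine marker rose and 0 fell (median 0.08). The summed intestine level was 2081 to 6928, 4125 to 7073 and 3720 to 8044 CPM in klf9-/- and 2001 to 4392, 3613 to 6793 and 2237 to 7081 CPM in wildtype at the 3 time points, and the part of organ content in these changes was not tested. The differences of cyp2p7 and sult1st3 were 1.09 ± 0.15 (adjusted p = 2.1e-05) and 1.104 ± 0.15 (adjusted p = 9.3e-06). That of sult1st2 (0.69 ± 0.19, adjusted p = 0.011) was lost without PC1 (0.49, adjusted p = 0.28). Many of these genes were lowest in the same pool. The lowest of the 4 pools was klf9-/- ZT-3 replicate 4 in 14 of the 15 genes, klf9-/- ZT+2.5 replicate 1 in 14 and wildtype ZT+2.5 replicate 1 in 12. These pools had the highest PC1 scores of their groups (1.79, 1.37 and 0.85 SD). They were ends of a graded order, as the PC1 score rose or fell steadily with replicate number in every genotype and time point. In klf9-/- ZT-3, for example, it was -0.88, -0.37, 0.53 and 1.79 SD in replicates 1 to 4. Without PC1, 12 rose before light onset and 7 after it, with 8 higher in klf9-/-. Without wildtype ZT+2.5 replicate 1, 1 of the 15 was lower in klf9-/-. Without klf9-/- ZT+2.5 replicate 1, 14 rose before light onset, 12 after it and all 15 over the span.

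Carotenoid and retinoid genes had the largest median rise of the role groups, a median log2 fold change of 2.39 in klf9-/- over the span in 4 members. The carotenoid oxygenase gene bco1l had 2.33, 1.501, 2.29 and 0.806 CPM at ZT-3, then 4.73, 6.996, 7.86 and 12.9 at ZT0 and finally 7.32, 14.02, 16.5 and 16.8 at ZT+2.5 in klf9-/-. Wildtype larvae had 0.852, 0.918, 1.34 and 1.23 CPM at ZT-3, then 4.98, 3.63, 4.63 and 3.37 at ZT0 and finally 6.09, 6.68, 11.5 and 16.01 at ZT+2.5. The ZT-3 and ZT0 pools did not overlap in either genotype, and ZT0 and ZT+2.5 overlapped in klf9-/-. Before light onset it rose by 2.23 ± 0.22 in klf9-/- (adjusted p = 4.6e-05). Its call after light onset (0.62 ± 0.18, adjusted p = 0.047) was lost without klf9-/- ZT0 replicate 1 or 3 or ZT+2.5 replicate 2 (0.48 to 0.53, adjusted p = 0.11 to 0.14). That call was also lost without PC1 (0.77, adjusted p = 0.31). The second oxygenase gene bco2l rose mainly after light onset (1.49 ± 0.15), the cellular retinol-binding protein gene rbp7a mainly before it (2.60 ± 0.20), and cyp27c1, which makes vitamin A2, at both steps (0.62 ± 0.07 and 0.48 ± 0.067). Over the time points bco1l and bco2l were higher in klf9-/- (0.81 ± 0.12 and 0.73 ± 0.10), while rbp7a and cyp27c1 gave -0.10 ± 0.13 and 0.042 ± 0.052 (adjusted p = 0.63 and 0.60). The call of rbp7a after light onset (0.60 ± 0.16) was lost without klf9-/- ZT0 replicate 3 (0.45) or ZT+2.5 replicate 1 (0.44).

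Digestion and lipoprotein genes, 11 members of gut, pancreas and liver, varied most between pools. In klf9-/- 7 rose before light onset, 3 after it and 9 over the span, and without PC1 4, 1 and 7 did. On the PC1-adjusted values, 6 of the 11 still met the rule. The chitinase gene chia.2 had 206, 195, 181 and 67.4 CPM at ZT-3, then 303, 402, 471 and 521 at ZT0 and finally 282, 812, 923 and 758 at ZT+2.5 in klf9-/-. The wildtype pools had 81.1, 81.8, 173 and 94.7 CPM at ZT-3, then 417, 268, 182 and 249 at ZT0 and finally 204, 319, 621 and 687 at ZT+2.5. The ZT-3 and ZT0 pools did not overlap in either genotype, whereas ZT+2.5 overlapped ZT0 in both, and klf9-/- ZT+2.5 replicate 1 lay below every ZT0 pool of its genotype. The klf9-/- step before light onset was log2 fold change 1.45 ± 0.24 (SE), adjusted p = 0.003, and the step after it 0.51 ± 0.24 (adjusted p = 0.23). The apolipoprotein gene apoa4a showed the same timing (2.19 ± 0.19 and 0.12 ± 0.16), and si:ch211-214p16.3, listed in the reference as phospholipase plb1, rose by 1.29 ± 0.32 before light onset, a call lost without PC1 (1.22, adjusted p = 0.21).

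The pancreatic carboxypeptidase gene cpa1 had 57.8, 25.5, 14.3 and 7.35 CPM at ZT-3, then 6.39, 15.6, 26.3 and 39.8 at ZT0 and finally 8.99, 33, 67.5 and 70.34 at ZT+2.5 in klf9-/-. In wildtype it had 4.89, 6.79, 10.7 and 7.39 CPM at ZT-3, then 26.2, 14.7, 8.98 and 5.50 at ZT0 and finally 5.27, 12.2, 23.6 and 32.9 at ZT+2.5. Pools of a group differed several-fold, and the klf9-/- change over the span was 0.46 ± 0.22 (adjusted p = 0.16), which passed without klf9-/- ZT+2.5 replicate 1 (0.57, adjusted p = 0.097). For zgc:136461, listed in the reference as the chymotrypsinogen ctrb.2, the change over the span was called (0.68 ± 0.25, adjusted p = 0.082). The call was lost without any 1 of 8 klf9-/- pools (0.46 to 0.72, adjusted p = 0.10 to 0.24). These pools were ZT-3 replicates 1, 2 and 3, ZT0 replicates 3 and 4 and ZT+2.5 replicates 2, 3 and 4. It was lost as well without PC1 (1.12, adjusted p = 0.33) and without the filter on low counts (0.66, adjusted p = 0.13). The same held with all 24 samples in the fit (0.70, adjusted p = 0.13) and with the replicate number in the fit (0.63, adjusted p = 0.12). Both calls of chia.3 at single steps were also lost when 1 pool was left out. Before light onset this held for 6 of the 12 klf9-/- pools (ZT-3 replicates 1, 2 and 4 and ZT0 replicates 1, 2 and 3, 0.54 to 0.70). After it this held for 8 (ZT-3 replicates 1 and 2, ZT0 replicates 1 to 4 and ZT+2.5 replicates 2 and 3, 0.33 to 0.63). Without PC1 both chia.3 calls were lost too (0.62 and 0.75, adjusted p = 0.45 and 0.29). With all 24 samples in the fit they were also lost (0.65 and 0.61, adjusted p = 0.46 for each). The vitamin B12 receptor gene cubn, an intestine marker, did not pass the test in klf9-/- (0.18 ± 0.16 over the span, adjusted p = 0.45), with means of 15.2 ± 2.85, 16.32 ± 1.15 and 17.4 ± 3.98 CPM in klf9-/- and 13.7 ± 1.02, 17.99 ± 5.27 and 24.1 ± 2.41 CPM in wildtype.

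Over the time points 7 of these 11 were higher in klf9-/- and 1, chia.3, was lower. Without PC1, 3 were higher and 1 was lower, and without wildtype ZT+2.5 replicate 1, 2 were lower. The largest differences were cpa1 (log2 fold change 1.38 ± 0.17 (SE), adjusted p = 3.6e-06), the hepatic lipase gene lipca (1.23 ± 0.18) and zgc:136461 (0.98 ± 0.18), with chia.3 at -0.67 ± 0.24 (adjusted p = 0.041). The call of zgc:136461 was lost without PC1 (0.82, adjusted p = 0.12). The marker lists of the same organs, which hold cpa1 for exocrine pancreas and apoa4a, chia.2, cubn and sult1st2 for intestine, were higher too. Beside the liver and intestine counts given above, 17 of 18 exocrine pancreas markers tested were higher in klf9-/- and 0 were lower, and no marker of the 3 organs was at 0. The summed exocrine pancreas level was 1282 to 6598, 1099 to 5299 and 1159 to 8192 CPM in klf9-/- and 1042 to 2156, 1272 to 5247 and 1017 to 5570 CPM in wildtype at the 3 time points. The summed liver level was 4961 to 11256, 7718 to 11335 and 6887 to 11349 CPM in klf9-/- and 3672 to 7420, 5745 to 9332 and 3011 to 9679 CPM in wildtype. The part of organ content in the members' differences was not tested. As in the cytochrome group, klf9-/- ZT-3 replicate 4 and ZT+2.5 replicate 1 were each the lowest of their 4 pools in 10 of 11 genes, and without the second of these 5 rose after light onset and 10 over the span.

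Solute transporters rose in all 8 cases over the span (median 1.57), 6 before and 5 after light onset. The urea transporter gene slc14a2 had 1.103, 1.88, 1.26 and 0.924 CPM at ZT-3, then 5.67, 5.91, 4.11 and 5.04 at ZT0 and finally 7.43, 6.63, 7.94 and 8.07 at ZT+2.5 in klf9-/-. Wildtype larvae had 0.797, 0.617, 0.856 and 0.752 CPM at ZT-3, then 1.63, 1.37, 1.40 and 1.63 at ZT0 and finally 4.14, 1.83, 3.83 and 4.37 at ZT+2.5. Its klf9-/- samples were above all wildtype samples of the same time point, and its genotype difference, log2 fold change 1.27 ± 0.15 (SE), adjusted p = 1.4e-06, was among the 5 largest of the members. Its call after light onset (0.54 ± 0.15) was lost without klf9-/- ZT0 replicate 3 or 4 or ZT+2.5 replicate 1 (0.41 to 0.50). The Rh family genes rh50 and rhcgl1, of the ammonia-transporting protein family, rose by 2.78 ± 0.28 and 2.85 ± 0.23 before light onset and gave 0.55 ± 0.21 and -0.27 ± 0.21 after it (adjusted p = 0.13 and 0.50). The organic cation transporter gene slc22a2 rose at both steps (0.79 ± 0.06 and 0.26 ± 0.06) and was higher in klf9-/- (0.55 ± 0.051, adjusted p = 3e-08). The efflux pump gene abcg2b rose after light onset (0.89 ± 0.20) and gave 0.50 ± 0.21 before it (adjusted p = 0.17). Of the 8, 6 were higher and 0 lower in klf9-/-. The higher level of rh50 (0.66 ± 0.15) was lost without PC1 (0.44, adjusted p = 0.23).

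Among 7 genes of amino acid breakdown, 6 rose over the span, 6 before light onset and 5 after it (3 without PC1). Tyrosine aminotransferase (tat), a classic glucocorticoid target of the mammalian liver, had 6.47, 4.88, 5.11 and 3.39 CPM at ZT-3, then 12.48, 11.96, 10.8 and 16.2 at ZT0 and finally 19.04, 23.9, 34.9 and 26.3 at ZT+2.5 in klf9-/-. The wildtype means were 4.65 ± 0.525, 9.74 ± 1.5 and 22.7 ± 8.85 CPM at the same times (SD, n = 4). The klf9-/- time points did not overlap, and its steps were log2 fold change 1.40 ± 0.14 (SE), adjusted p = 4.8e-05, and 0.93 ± 0.13. The mitochondrial arginase gene arg2 rose by 1.296 ± 0.082 and 0.46 ± 0.08 and was higher in klf9-/- (0.50 ± 0.07, adjusted p = 1.3e-05). The genotype difference of tat was 0.32 ± 0.10 (adjusted p = 0.022), and without PC1 0.24 (adjusted p = 0.24). In the group 5 genes were higher in klf9-/- and 3 without PC1. The exception in time was dao.1, a D-amino acid oxidase, with 0.307 ± 0.0194, 0.485 ± 0.345 and 0.468 ± 0.292 CPM in klf9-/- and 0.248 ± 0.0703, 0.841 ± 1.04 and 1.55 ± 1.53 CPM in wildtype, at a level of few counts. Of the 20 glucocorticoid targets listed, tat was the only member.

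All 7 genes of fatty acid and energy metabolism rose over the span in klf9-/-, 5 before light onset and 3 after it. Over the time points 2 were higher in klf9-/- and 0 lower, and 1 was lower without wildtype ZT+2.5 replicate 1. On the PC1-adjusted values, 4 of the 7 still met the rule. The pyruvate dehydrogenase kinase gene pdk2b, which limits glucose oxidation, rose by 0.94 ± 0.20 before light onset and gave 0.56 ± 0.21 after it (adjusted p = 0.12). For ucp3, a mitochondrial uncoupling protein gene, and elovl2, which lengthens polyunsaturated fatty acids, only the whole span passed (1.46 ± 0.34 and 1.11 ± 0.23, adjusted p = 0.012 and 0.0063).

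The squalene epoxidase gene sqlea, of cholesterol synthesis, was among the members lower in klf9-/-. It had 1.48, 1.995, 1.54 and 1.45 CPM at ZT-3, then 1.53, 2.13, 2.14 and 2.79 at ZT0 and finally 3.87, 5.07, 4.89 and 6.34 at ZT+2.5 in klf9-/-. In wildtype it had 4.84, 2.98, 10.4 and 3.83 CPM at ZT-3, then 7.25, 10.8, 3.44 and 7.08 at ZT0 and finally 5.24, 10.97, 18.1 and 11.9 at ZT+2.5. All klf9-/- pools lay below all wildtype pools at ZT-3 and ZT0, and the genotypes overlapped at ZT+2.5. The genotype difference was log2 fold change -1.46 ± 0.22 (SE), adjusted p = 4.4e-05, the most negative among the members, while its rise after light onset in klf9-/- was log2 fold change 1.18 ± 0.14 (SE), adjusted p = 5.8e-05. Of 25 cholesterol synthesis genes, sqlea was the only member, 15 rose and 1 fell over the span in klf9-/-, and 19 were lower and 0 higher in klf9-/- over the time points.

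Genes of DNA replication and repair rose in all 6 cases before light onset and in 5 after it. The UV damage sensor gene ddb2 had 6.29, 7.26, 7.94 and 7.11 CPM at ZT-3, then 10.9, 11.4, 11.3 and 11.9 at ZT0 and finally 44.4, 42.3, 45.5 and 43.3 at ZT+2.5 in klf9-/-. Wildtype larvae had 7.96, 7.79, 8.35 and 7.63 CPM at ZT-3, then 9.95, 9.70, 10.9 and 12.1 at ZT0 and finally 41.4, 38.2, 43.6 and 45.7 at ZT+2.5. The time points did not overlap in either genotype while the genotypes overlapped at each, and the main rise followed light onset (log2 fold change 1.96 ± 0.063 (SE), adjusted p = 6.1e-11, against 0.67 ± 0.067 before it). The genotype difference was 0.003 ± 0.045 (adjusted p = 0.97). The DNA polymerase α gene pola1 and uhrf1, which maintains DNA methylation, changed by 0.66 ± 0.071 and 0.60 ± 0.052 over the span. The call of pola1 before light onset (0.25 ± 0.071) was lost without klf9-/- ZT-3 replicate 1 or 3 (0.22 and 0.21). No gene of the 6 was higher in klf9-/- and 3 were lower, among them dctpp1 and dscc1. For dctpp1, a nucleotide pyrophosphatase gene (-0.43 ± 0.17, adjusted p = 0.067), the call was lost without PC1 (-0.39, adjusted p = 0.17) and without any 1 of 6 pools (klf9-/- ZT0 replicate 2 and ZT+2.5 replicates 2 and 3, wildtype ZT-3 replicate 1, ZT0 replicate 4 and ZT+2.5 replicate 1, with -0.41 to -0.39). Of the 46 DNA replication genes listed, 43 rose over the span in klf9-/- and 33 were lower in klf9-/- over the time points, with 0 in the opposite direction in either.

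Of 4 nuclear receptor genes, the retinoid-related orphan receptors rorca and rorab belong to the clock circuit outside the names left out. In klf9-/- rorca averaged 6.96 ± 1.14, 10.1 ± 1.49 and 29.5 ± 1.65 CPM and in wildtype 8.11 ± 1.21, 10.96 ± 0.365 and 26.8 ± 1.74 CPM, with a rise of 0.53 ± 0.10 before and 1.54 ± 0.10 after light onset. For rorab the order was reversed (0.90 ± 0.057 before and 0.41 ± 0.057 after). Neither differed between genotypes by this test (-0.037 ± 0.063 and 0.057 ± 0.035, adjusted p = 0.71 and 0.24). The orphan receptor genes nr0b2a (SHP, a repressor of bile acid synthesis) and nr5a5 were higher in klf9-/- (log2 fold change 1.11 ± 0.082 (SE), adjusted p = 1.9e-09, and 0.69 ± 0.15). The change of nr0b2a over the span (0.60 ± 0.18, adjusted p = 0.031) was lost without PC1 (0.70, adjusted p = 0.32).

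**Figure D5:**
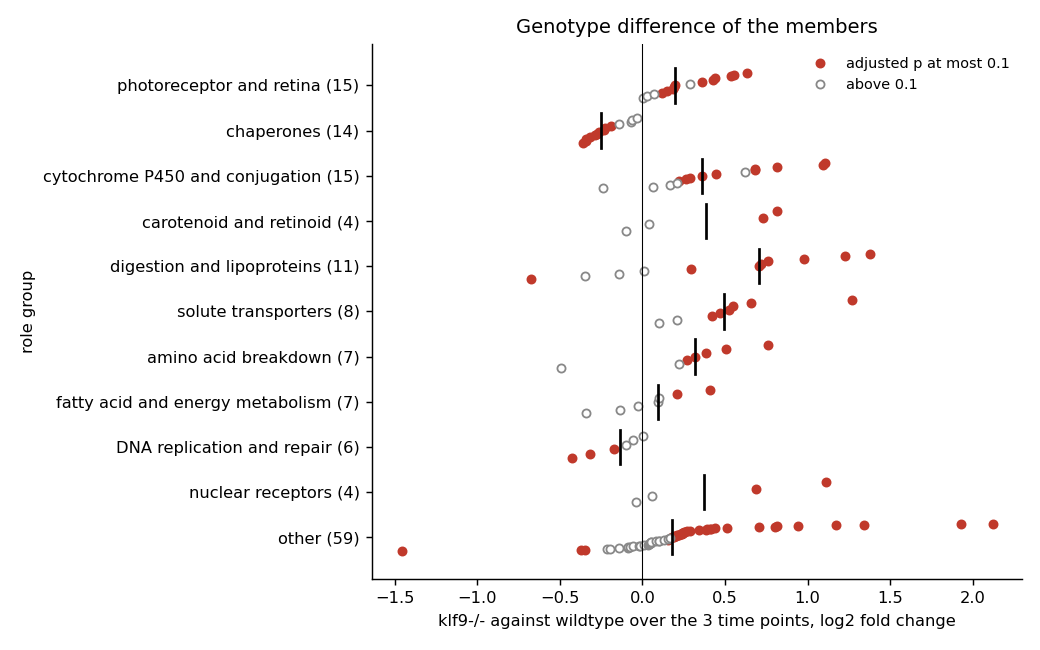
Log2 fold change of each member in klf9-/- against wildtype over the 3 time points, by role group, with filled points at an adjusted p of at most 0.1, open points above it and bars at group medians. Chaperones lie left of 0 and photoreceptor genes right of it, and the widest spread is among genes of no role group, with sqlea at -1.46 and zgc:111983 at 2.12.

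The largest rises belonged to genes of no role group. The unnamed gene si:dkey-18a10.3 (ENSDARG00000090814) had the largest smaller step in wildtype and the largest change over the span in klf9-/- (log2 fold change 5.32 ± 0.14 (SE), adjusted p = 8.1e-12, or 39.9-fold). It had 0.708, 1.12, 0.654 and 0.853 CPM at ZT-3, then 9.39, 7.41, 8.15 and 8.07 at ZT0 and finally 28.1, 35.9, 36.4 and 36.5 at ZT+2.5 in klf9-/-. The wildtype pools had 0.453, 0.253, 0.210 and 0.304 CPM at ZT-3, then 3.403, 2.79, 3.13 and 3.80 at ZT0 and finally 26.7, 25.03, 30.3 and 29 at ZT+2.5. The genotypes did not overlap at ZT-3 or ZT0, and over the time points klf9-/- was higher (0.81 ± 0.14). The next largest were si:dkey-104n9.1 (4.91 ± 0.13), CR792417.1, listed in the reference as adtrp (3.96 ± 0.14), and lonrf1l, a RING finger protein gene (3.44 ± 0.082), and each of these 3 changed more after light onset. For lonrf1l the values were 10.97, 9.91, 9.41 and 9.77 CPM at ZT-3, then 18.6, 19.5, 19.8 and 18.4 at ZT0 and finally 108, 120.2, 111 and 92.5 at ZT+2.5 in klf9-/-. In wildtype they were 8.86, 8.68, 9.62 and 8.07 CPM at ZT-3, then 15.96, 14.9, 16.6 and 15.97 at ZT0 and finally 89.6, 92.5, 94.5 and 94.6 at ZT+2.5. No time point overlapped the next, and the difference over the time points was 0.22 ± 0.038 (adjusted p = 9.4e-05).

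Other members with large wildtype steps were zgc:73226, zgc:92161 and trim108, which rose by 2.29 ± 0.19, 2.57 ± 0.16 and 2.52 ± 0.12 over the span in klf9-/-. Of these zgc:73226 was lower in klf9-/- (-0.38 ± 0.10, adjusted p = 0.0052) and trim108 higher (0.41 ± 0.073, adjusted p = 0.00017), the second not without PC1 (0.32, adjusted p = 0.11).

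In klf9-/-, 27 members were not called before light onset and 48 after it. Over the span 7 were not called, namely cubn, cpa1, dao.1, zgc:111983, si:dkey-7c18.24 and the entries FP236157.5 and FP236157.8. For both FP236157 entries the sign depended on 1 pool, with 0.25 ± 0.39 and 0.24 ± 0.33 in all samples and -0.20 and -0.077 without klf9-/- ZT+2.5 replicate 2. For dao.1 the change was 0.30 ± 0.40, and -0.046 without klf9-/- ZT-3 replicate 1. The gene zgc:111983 had 46.8, 34.5, 40.7 and 27.04 CPM at ZT-3, then 39.4, 45.5, 48.5 and 50.99 at ZT0 and finally 82.8, 33.7, 25.03 and 118 at ZT+2.5 in klf9-/-. In wildtype it had 3.99, 6.41, 6.47 and 7.84 CPM at ZT-3, then 8.51, 20.9, 16.1 and 5.50 at ZT0 and finally 8.89, 15.6, 26.2 and 42.2 at ZT+2.5. It had the largest genotype difference of the members (log2 fold change 2.12 ± 0.27 (SE), adjusted p = 6.8e-06), every klf9-/- sample at ZT-3 and ZT0 lay above every wildtype sample of the same time point, and its change over the span passed without klf9-/- ZT+2.5 replicate 3 (1.06, adjusted p = 0.046).

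Next in genotype difference were si:dkey-14d8.6 (log2 fold change 1.93 ± 0.14 (SE), adjusted p = 2.8e-09), cpa1 and si:ch211-149b19.4 (1.34 ± 0.30, adjusted p = 0.0019). The rise of si:dkey-14d8.6 over the span (0.62 ± 0.17) was not called without PC1 (0.87, adjusted p = 0.32). For si:ch211-149b19.4, a gene of few counts with means of 0.378 ± 0.363, 0.882 ± 0.899 and 1.41 ± 0.958 CPM in klf9-/- and 0.107 ± 0.0865, 0.454 ± 0.132 and 1.07 ± 1.199 CPM in wildtype, both calls were lost without PC1 (0.88 and 1.89, adjusted p = 0.29 and 0.25), and that over the span also without klf9-/- ZT-3 replicate 2 (1.36, adjusted p = 0.15).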

How the data were processed

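RNA from 24 pools of larvae was sequenced. The members and the gene lists were chosen with earlier results of these data known, and the role groups were made after the values were seen. Per the labels and the study's methods, reads were trimmed (Trim Galore 0.6.5), aligned with STAR 2.7.5c and counted with RSEM 1.3.3. The authors deposited expected counts per gene, which are not normalized. The authors also deposited regularized log2 values, made with DESeq2 1.30.1, which choose the members here. The tables of the authors' own DESeq2 comparisons hold fold changes and p-values and were not used, and 0 columns of other samples were present.

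Expected counts, of which 18.0% were not whole, were rounded. Genes were filtered with filterByExpr, scaled by TMM and tested with edgeR 4.0.16 (limma 3.58.1, R 4.3.3) by the quasi-likelihood test with PC1 of the Z-transformed regularized log2 values as a covariate, as the study did. The klf9-/- time steps were tested in the 12 klf9-/- samples, and klf9-/- against wildtype over the time points in all 24. P-values were adjusted by Benjamini and Hochberg over all genes tested, and calls were made at 0.1. Scripts were tested on simulated data. Samples held 41444609 to 64452247 counts. The error given with a mean CPM is the SD between pools, and that with a log2 fold change is the SE of the fit. Replicates were separate dishes.

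The 73 named genes are those that the rule takes by size of wildtype step, klf9-/- change and genotype difference and as list members, with others added after their values were seen to illustrate the role groups. Some genes that the rule takes are not reported here. Names and neighbours came from RefSeq (136 of 150 members matched), with no coordinates. A planned motif search of promoters was not run. Alternatives were another PC1, no PC1, no filter, DESeq2 1.42.0, a fold change limit, a replicate block and each sample left out.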

Additional observations from a re-analysis of the deposited data

Results flagged for a closer look

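In 24 of 444 groups of 4 pools, a single pool stood far from the other 3 (by Dixon's criterion). Chance alone gives about 1 in 20, which is close to this share, so single values below may be chance gaps. Of the pools that stood apart, klf9-/- ZT+2.5 replicate 1 accounted for 9. It was low for the genes of detoxification, digestion and fatty acid elongation and for si:dkey-18a10.3. Its value for si:dkey-18a10.3 was 28.1 CPM, against 35.9 to 36.5 in the other 3 pools. Its value for chia.3 was 1.54 CPM, against 3.75 to 4.20 in the other 3 pools. Its value for cyp2ad2 was 45.8 CPM, against 82.8 to 89.2 in the other 3 pools. Its value for sult1st2 was 3.85 CPM, against 15.3 to 17.2 in the other 3 pools. Its value for cyp2k18 was 6.67 CPM, against 13.7 to 14.8 in the other 3 pools. Its value for sult1st3 was 9.22 CPM, against 22.5 to 24.1 in the other 3 pools. Its value for elovl2 was 24.3 CPM, against 39.2 to 40.3 in the other 3 pools. It was high for CR792417.1 and for the recoverin gene rcvrn3. There CR792417.1 had 8.68 CPM, against 6.91 to 7.15 in the other 3 pools. There rcvrn3 had 782 CPM, against 661 to 679.7 in the other 3 pools. 

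The other values were spread over the remaining pools. In wildtype ZT0 replicate 4, pde6ha reached 122 CPM, against 75.6 to 79.8 in the other 3 pools. In klf9-/- ZT-3 replicate 4, zgc:73226 was at 5.43 CPM, against 2.99 to 3.31 in the other 3 pools. In klf9-/- ZT0 replicate 3, FP236157.5 stood at 9.45 CPM, against 5.76 to 6.08 in the other 3 pools. In wildtype ZT0 replicate 2, dao.1 reached 2.397 CPM, against 0.187 to 0.491 in the other 3 pools. In wildtype ZT0 replicate 2, pola1 was at 28.7 CPM, against 26.3 to 26.7 in the other 3 pools. In klf9-/- ZT-3 replicate 1, hsp70l stood at 12.47 CPM, against 8.38 to 8.96 in the other 3 pools. In wildtype ZT-3 replicate 3, chia.2 reached 173 CPM, against 81.1 to 94.7 in the other 3 pools. In wildtype ZT-3 replicate 3, pola1 was at 16.5 CPM, against 21.9 to 22.9 in the other 3 pools. In wildtype ZT-3 replicate 3, zgc:136461 stood at 94.8 CPM, against 46.8 to 53.0 in the other 3 pools. In wildtype ZT-3 replicate 4, rorca was at 9.92 CPM, against 7.38 to 7.63 in the other 3 pools. In klf9-/- ZT0 replicate 1, hsp90aa1.2 stood at 89.6 CPM, against 75.1 to 77.4 in the other 3 pools. In klf9-/- ZT0 replicate 1, myo3a reached 31.7 CPM, against 23.5 to 24.6 in the other 3 pools. In klf9-/- ZT0 replicate 1, ucp3 was at 25.1 CPM, against 13.9 to 15.0 in the other 3 pools. In wildtype ZT+2.5 replicate 1, pola1 stood at 39.9 CPM, against 34.9 to 35.8 in the other 3 pools. In klf9-/- ZT0 replicate 2, lipca reached 6.46 CPM, against 4.04 to 4.41 in the other 3 pools. No gene examined in this way moved in opposite directions between the genotypes in every pool.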

How the results depend on the processing

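Over the 150 members, the settings tried gave 100 to 130 members higher before light onset, 72 to 105 after it and 137 to 144 over the span. Without PC1, 102, 82 and 137 were higher at the steps and over the span, and 59 higher and 15 lower in klf9-/-. A limit of at least 0.5 on the log2 fold change left 33 higher and 2 lower in klf9-/- over the time points, against 78 and 17. Leaving out 1 pool gave 119 to 128 before light onset, at least 87 after it and 142 to 143 over the span, with 73 to 81 higher and 15 to 23 lower in klf9-/-. Choosing the list again without each wildtype pool kept 100 to 141 members. Leaving out 1 pool gave median klf9-/- rlog steps of 0.374 to 0.4 and 0.309 to 0.41. On log2 CPM, which covered 31242 genes, 843 met the same rule after the names were left out, against 158 on rlog. The number of genes that rise at both steps therefore depends on the scale. The top 150 on log2 CPM shared 90 genes with the members, and the median klf9-/- steps were 0.72 and 0.57. Only 60 members stayed in the list whichever 1 wildtype pool was left out, an alternative chosen after seeing the data. Of these 60, 53, 50 and 59 were higher at the steps and over the span, and 37 were higher and 6 lower in klf9-/-. Of 223 results for single genes, 188 kept their call throughout, and 25 lost it without PC1. Reversals came in 3 members when 1 pool was left out (FP236157.5 -0.20, FP236157.8 -0.077 and dao.1 -0.046, ranges -0.2 to 0.604, -0.077 to 0.52 and -0.046 to 0.561). The cause was not tested.

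With the replicate number as a replicate block beside PC1, 128, 105 and 142 members were higher and 76 higher and 18 lower in klf9-/-. The deviations of same-numbered pools from their group means had correlations of either sign. These were -0.44 to 0.39 among klf9-/- times (over 0.1 in 3 of 12 pairs) and -0.35 to 0.47 between genotypes (4 of 12). Those 4 were all at ZT+2.5 (0.25 to 0.47), while no pair at ZT-3 or ZT0 was over 0.1, so the numbers were not taken to pair the pools over the time points.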

Other observations

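The 8 clock and light-response genes left out by name also climbed in klf9-/-. The light-induced period gene per2 averaged, over the successive time points, 4.91 ± 0.256, 13.8 ± 0.560 and 188 ± 11.5 CPM (SD, n = 4), a rise of 38.6-fold over the span (log2 fold change 5.27 ± 0.067 (SE), adjusted p = 2.1e-15), most of it after light onset (3.78 ± 0.061). The genes cry5, cry1b, cry1a and cry-dash, of the cryptochrome and photolyase family, rose by 3.30 ± 0.074, 2.98 ± 0.076, 2.75 ± 0.054 and 2.31 ± 0.06. The 8 genes differed in timing. The larger change came before light onset in cry1b (2.50 ± 0.075), nfil3-6 (1.94 ± 0.28), cry1a (1.61 ± 0.052) and per3 (1.52 ± 0.076). It came after light onset in per2, cry5 (2.72 ± 0.071), cry-dash (1.67 ± 0.059) and tefa (1.26 ± 0.056). Only nfil3-6 missed the call at a step (0.51 ± 0.25 after light onset, adjusted p = 0.25). Over the time points nfil3-6, cry5, cry1b, per3, tefa and cry1a were higher in klf9-/-, by 0.64, 0.29, 0.24, 0.18, 0.11 and 0.10. Their adjusted p-values were 0.0057, 0.00019, 0.0011, 0.0035, 0.026 and 0.068 in the edgeR test, which had no fold limit. In that test per2 and cry-dash gave 0.064 and 0.069 (adjusted p = 0.26 and 0.18). The paper names per3 with per2 among core clock genes that the mutation did not affect. It does so beside effects at single time points found with DESeq2. The value of 0.18 for per3 here is an edgeR estimate over the 3 time points, so the 2 results are not measured alike.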
